A study of Xenopus laevis with 12 samples.

Results

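Retinoic acid metabolism and binding genes were followed in Xenopus laevis neural crest tissue, taken from frog embryos that had received a miR-196a morpholino, an antisense oligonucleotide analogue that blocks this microRNA. The group was defined by name, as every row called aldh1a2, dhrs3, cyp26a1, cyp26c1 or crabp2 in the authors' deposited tables of both stages. It comprised 10 gene copies, a .L and a .S copy of each of 5 genes, among 17510 rows shared by the tables of stage 14 and stage 17. The genes were chosen for the shift of their fold changes between the stages. Their fold changes are therefore described below without a test, and nothing is supported with them.

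A right dorsal cell of 4-cell embryos received 60 ng of the miR-196a morpholino or of a mismatch morpholino, whose altered bases make it the control. Embryos were collected at Nieuwkoop and Faber stages 14 and 17, 2 stages of neurulation. The 12 samples form 4 groups of 3, 1 for each arm and stage, all from wild-type embryos. How many embryos each sample held, and whether the samples came from separate clutches, is not given in the sources used here, so all p-values measure only the spread between these samples, which may be technical. The question at both stages is how loss of miR-196a function alters the transcripts of this tissue, and the series title names neural crest patterning and immature neural ectoderm programmes.

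Retinoic acid is a vitamin A derivative that acts through nuclear receptors and gives posterior character to the neural plate, above all to the hindbrain. Retinol is oxidised reversibly to retinaldehyde, and retinaldehyde irreversibly to retinoic acid by retinaldehyde dehydrogenases such as the product of aldh1a2. The dhrs3 enzyme returns retinaldehyde to retinol, the Cyp26 enzymes oxidise retinoic acid for removal, and Crabp2 carries it to its receptors in the nucleus. In Xenopus, transcripts of dhrs3 and cyp26a1 are known to be induced by retinoic acid, so that removal follows supply.

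Each value comes from a DESeq2-type table of the authors, which lists for every gene the mean normalised count, the log2 ratio of the arms (log2 fold change) and the standard error (SE) of that ratio. Values per sample were not analysed here, and the depth of each library is unknown. Neither headers nor labels name the numerator of the fold change, so positive values stand for more transcript in an arm that is called the numerator arm below, with signs kept as deposited. Every comparison between the stages takes the numerator to be the same arm in both tables, which the sources used here do not state. Of 585 genes past the authors' threshold in both tables, 575 had the same sign in both and 10 the opposite sign. Summed over all rows, the mean normalised counts of the authors' deposited tables were 1.67e+07 and 1.47e+07 for the stages in order, and the median SE of a fold change was 0.52 and 0.47 on the log2 scale. In tissue samples, fewer cells of a type and less RNA per cell cannot be told apart. The batch label repeats the stage, so batch and stage cannot be told apart, and a difference between stages has no within-batch value.

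At stage 14 the 10 gene copies lay on both sides of 0, and at stage 17 they lay mostly above it. The log2 fold changes at stage 14 ran from -0.79 (cyp26c1.L) to 1.52 (aldh1a2.L) in the authors' deposited table, with 6 positive, 4 negative and a median of 0.47. At stage 17 they ran from -1.38 (aldh1a2.L) to 5.06 (dhrs3.L) in the authors' deposited table, with 9 positive, 1 negative and a median of 1.93. The medians over all genes with an adjusted p-value were 0.02 and -0.003 at these stages. An adjusted p-value was present for all 10 copies in each table, so none was lost to a filter on low counts.

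By the authors' DESeq2 test 0 of the 10 copies had an adjusted p-value under 0.05 at stage 14, where 8.68% of all genes did. Before adjustment, 4 of the copies lay below 0.05 by that test, and the 8.68% does not refer to such values. The highest of these 4 p-values, 0.042 for aldh1a2.L, ranked 3088 from the lowest at stage 14. That ranking drew on 18206 rows, 59 of them without a p-value. At stage 17 the authors' deposited table put 7 of the 10 past the threshold, all positive, where 9.96% of all genes passed in either direction and 4.96% passed as positive. These counts describe the choice of the genes and are not evidence of an effect. The difference between the stages, stage 17 minus stage 14, ran from -2.90 to 5.72 on the log2 scale with a median of 1.58, against a median of 0.11 over all 16194 genes with adjusted p-values at both stages. It was positive for 9 copies and negative for aldh1a2.L.

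**Figure D1:**
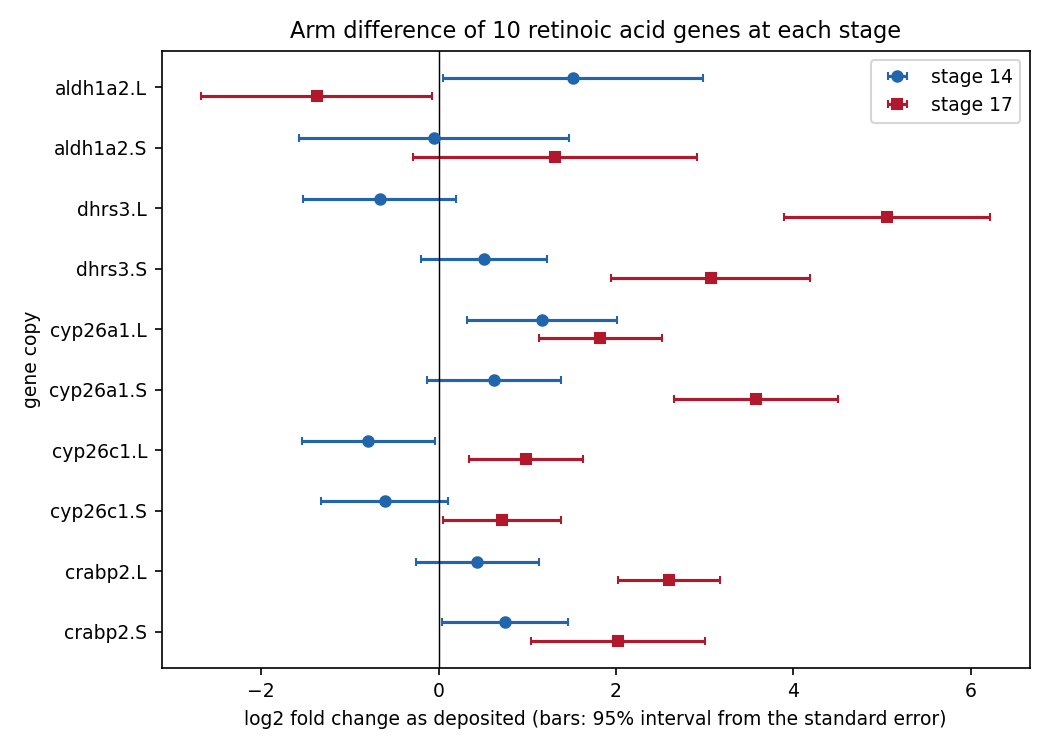
Log2 fold change between the morpholino arms for each of the 10 gene copies at stage 14 (circles) and stage 17 (squares), as deposited, with bars for the 95% interval computed from the standard error (3 samples per arm). At stage 17 dhrs3.L lies farthest to the right at 5.06, and aldh1a2.L is the single copy below 0.

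The gene that reduces retinaldehyde showed the greatest shift among the 10 copies. For dhrs3.L the authors' deposited tables gave a mean normalised count of 1042 and a log2 fold change of -0.66 (SE 0.44) at stage 14, and a mean of 396 and a change of 5.06 (SE 0.59) at stage 17. The 95% interval was -1.53 to 0.20 at stage 14 and 3.90 to 6.22 at stage 17. The second copy, dhrs3.S, had means of 375 and 195 and changes of 0.51 (SE 0.36) and 3.07 (SE 0.57) in the authors' deposited tables. Both copies were thus higher in the numerator arm at stage 17, dhrs3.L by 33.3-fold and dhrs3.S by 8.39-fold. The differences between stages were 5.72 (SE 0.74) and 2.56 (SE 0.68) on the log2 scale.

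Arm levels were derived by splitting the mean count according to the fold change, on the assumption that the mean covers the 2 arms at equal size and no other samples. For dhrs3.L these levels were 806 normalised counts in the numerator arm and 1278 in the denominator arm at stage 14, and 769 and 23.1 at stage 17. For dhrs3.S they were 441 and 309 at stage 14, and 348 and 41.4 at stage 17. The tables were normalised separately, so the levels of the 2 stages can only be set side by side. On that footing, the numerator arm had similar values in both tables, and the low values were those of the denominator arm at stage 17.

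Of the retinoic acid hydroxylases, cyp26a1 was positive in both copies at both stages. The authors' deposited tables gave cyp26a1.L a mean normalised count of 1359 and a log2 fold change of 1.17 (SE 0.43) at stage 14, and 1053 and 1.83 (SE 0.35) at stage 17. For cyp26a1.S the means in the authors' deposited tables were 2189 and 863, with changes of 0.63 (SE 0.38) and 3.58 (SE 0.47). The 95% intervals at the 2 stages were 0.32 to 2.02 and 1.13 to 2.52 for cyp26a1.L, and -0.12 to 1.38 and 2.65 to 4.50 for cyp26a1.S. The shift between stages was 0.66 (SE 0.56) for cyp26a1.L and 2.95 (SE 0.61) for cyp26a1.S. The computed level of cyp26a1.S in the denominator arm was 1719 normalised counts at stage 14 and 133 at stage 17, against 2658 and 1592 in the numerator arm.

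By point values, the second hydroxylase gene, cyp26c1, changed side between the stages in both copies, with the smallest fold changes at stage 17 among the copies above 0. In the authors' deposited tables cyp26c1.L went from -0.79 (SE 0.38) at a mean of 4543 to 0.99 (SE 0.33) at a mean of 5530 normalised counts. For cyp26c1.S the authors' deposited tables gave -0.61 (SE 0.37) at 3334 and 0.72 (SE 0.34) at 3001. At stage 17 the numerator arm was thus 1.99-fold and 1.65-fold higher, and at stage 14 it was 1.73-fold and 1.52-fold lower. Of these values, only that of cyp26c1.L at stage 17 was past the authors' threshold. The stage differences of 1.79 (SE 0.50) and 1.33 (SE 0.50) were close to each other, and cyp26c1 was the gene whose copies differed least at both stages.

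In the RefSeq gene order of assembly Xenopus_laevis_v10.1, cyp26a1 and cyp26c1 are adjacent protein-coding genes on both the .L and the .S chromosome. Their fold changes had opposite signs at stage 14, positive for both cyp26a1 copies and negative for both cyp26c1 copies. The unadjusted 95% intervals of the .L copies at that stage, 0.32 to 2.02 and -1.54 to -0.04, did not overlap. Those of the .S copies, -0.12 to 1.38 and -1.32 to 0.11, overlapped and both included 0. No copy of either gene was past the authors' threshold at this stage. Since the copies were chosen for their shift between stages, these intervals describe them and test nothing.

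The carrier gene crabp2 was positive in both copies at both stages, with higher values at stage 17. For crabp2.L the authors' deposited tables gave a mean of 3984 normalised counts and a log2 fold change of 0.44 (SE 0.35) at stage 14, and 2012 and 2.60 (SE 0.29) at stage 17. For crabp2.S the values in the authors' deposited tables were 1572 and 0.75 (SE 0.36), then 751 and 2.03 (SE 0.50). In linear terms the numerator arm of crabp2.L was 1.36-fold higher at stage 14 and 6.06-fold higher at stage 17, and that of crabp2.S 1.68-fold and 4.07-fold. Computed levels of crabp2.L were 4585 and 3383 in the numerator and denominator arms at stage 14, and 3455 and 570 at stage 17. In every copy but aldh1a2.L and cyp26c1.L, the lowest computed level was that of the denominator arm at stage 17. The same held for the summed levels of the neural plate markers given below, so it was not particular to these genes.

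**Figure D2:**
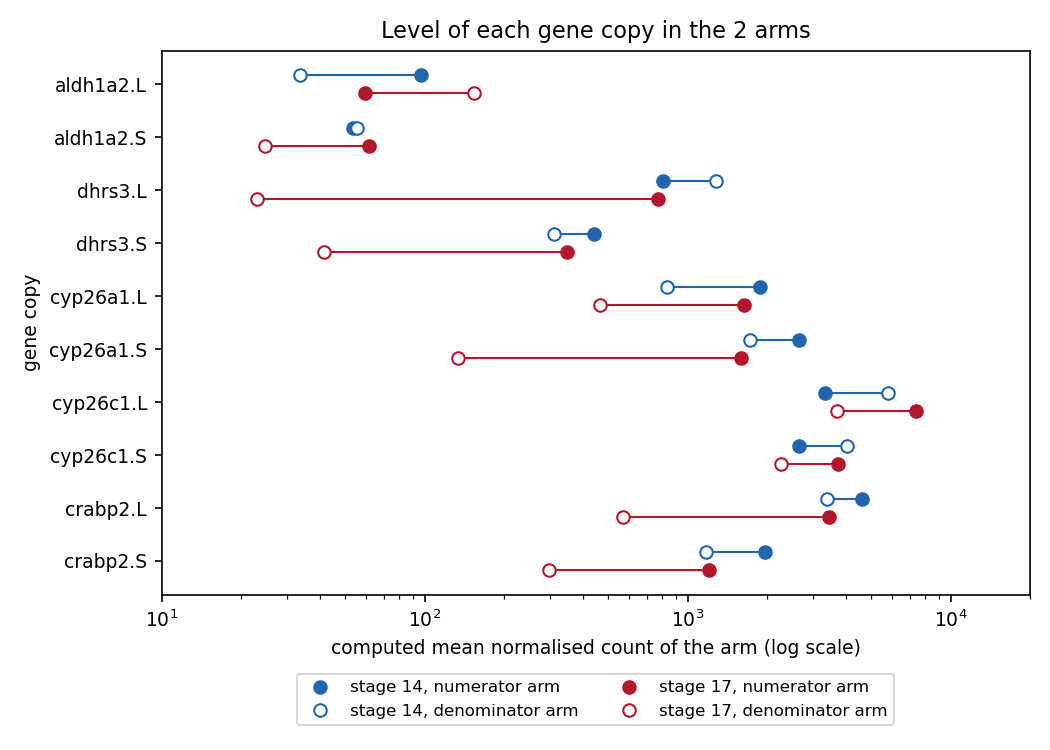
Mean normalised count of each gene copy in the numerator arm (filled) and the denominator arm (open) at stage 14 (blue) and stage 17 (red), on a log axis, computed from the deposited mean and fold change with 3 samples assumed per arm and no error shown. For dhrs3.L the arms lie at 769 and 23.1 at stage 17, and the tables of the stages were normalised separately.

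The synthesis gene aldh1a2 was measured at much lower counts and with larger errors, and its copies did not move together. In the authors' deposited tables aldh1a2.L had a mean of 65.1 normalised counts with a log2 fold change of 1.52 (SE 0.75) at stage 14, and 107 with -1.38 (SE 0.66) at stage 17. For aldh1a2.S the authors' deposited tables gave 54.1 with -0.05 (SE 0.77), and 43.1 with 1.32 (SE 0.82). The 95% intervals of aldh1a2.L, 0.05 to 2.99 and -2.68 to -0.07, lay on either side of 0, and both intervals of aldh1a2.S included it. Neither copy was past the authors' threshold at either stage. Averaged over the copies, the fold changes were 0.73 (SE 0.54) and -0.03 (SE 0.53), the value at stage 17 being a mean of copies with opposite signs. With the computed arm levels of the copies summed first, the log2 ratios were 0.75 and -0.56, so no single value describes aldh1a2 as a gene.

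The order of the 10 copies at stage 17 was dhrs3.L, cyp26a1.S, dhrs3.S, crabp2.L, crabp2.S, cyp26a1.L, aldh1a2.S, cyp26c1.L, cyp26c1.S and aldh1a2.L, from the highest log2 fold change to the lowest. Of the 9 pairs adjacent in that order, the gap exceeded the 95% interval of its combined errors only between cyp26c1.S and aldh1a2.L, at 2.10 (SE 0.75). The gap between dhrs3.L and cyp26a1.S, 1.48 (SE 0.76), fell just short of that. At stage 14 it was exceeded in 0 of the 9 pairs. The fold changes of copies come from the same libraries, so these combined errors are approximate. The copies were chosen for their shift between stages, so these gaps describe them and test nothing.

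Copies of a gene, the homeologs of this allotetraploid frog, had wider absolute gaps in fold change at stage 17 than at stage 14 in all 5 genes, though in 0 of the 5 did the widening exceed the 95% interval of its combined errors. It was 1.21 (SE 0.83) for cyp26a1, 1.12 (SE 1.51) for aldh1a2, 0.81 (SE 1.0) for dhrs3, 0.27 (SE 0.77) for crabp2 and 0.08 (SE 0.71) for cyp26c1 on the log2 scale. By point values, which copy had the higher fold change also turned between the stages in all 5 genes. The .L copy was the higher one at stage 14 for aldh1a2 and cyp26a1, and at stage 17 for dhrs3, cyp26c1 and crabp2. The absolute gaps at stage 14 were 1.57 (SE 1.08) for aldh1a2, 1.18 (SE 0.57) for dhrs3 and 0.54 (SE 0.58) for cyp26a1. They were 0.31 (SE 0.51) for crabp2 and 0.19 (SE 0.53) for cyp26c1. Of the stage 14 gaps, only that of dhrs3 was beyond its 95% interval, so the turn is uncertain in the other genes. The genes were chosen for their shift between stages and the errors are approximate. For dhrs3 too, the gaps and their turn therefore describe the copies and test nothing. The absolute gap between .L and .S fold changes at stage 17 was 2.69 (SE 1.05) for aldh1a2, 1.99 (SE 0.82) for dhrs3 and 1.75 (SE 0.59) for cyp26a1 on the log2 scale. Among the 5353 homeolog pairs of the stage 17 table, with a median gap of 0.48, these lay at percentiles 95.2, 91.4 and 89.1. The gaps of crabp2, 0.57 (SE 0.58), and cyp26c1, 0.27 (SE 0.47), lay at percentiles 56.6 and 32.0. In the denominator arm at stage 17 the .L copy made up 35.8% of the computed dhrs3 level and 77.7% of that of cyp26a1, against 68.9% and 50.8% in the numerator arm. How reads that match both copies were assigned is not given in the sources used here, and values of single copies are uncertain to that extent.

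Other genes of the retinoic acid pathway, picked by function and without the 10 copies, were read from the authors' tests. The lists were drawn up with earlier results of these data known. Their shares, here and below, therefore describe the lists and are not independent support. The lists used named 61 genes, of which 48 had at least 1 copy in a table. The authors' deposited table of stage 14 put 9 of 66 tested rows past the threshold (13.6%), 3 positive and 6 negative, where 8.68% of all genes passed. At stage 17 the authors' deposited table put 14 of 62 rows past it (22.6%), 12 positive and 2 negative, where 9.96% of all genes passed. The median log2 fold change of the tested rows was -0.23 at stage 14 and 0.32 at stage 17, against 0.02 and -0.003 over all genes. Passing at both stages were 3 rows, each with the same sign at both, rarg.S, nr2f2.L and rpe65.S.

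The difference between the stages was tested for each gene from the fold changes and standard errors of the authors' deposited tables, with a two-sided normal test and Benjamini-Hochberg adjustment over 16194 genes. Of 58 pathway rows tested, 8 had an adjusted p-value under 0.05 (13.8%), where 1.51% of all genes did. All 8 were more positive at stage 17, as were 1.30% of all genes. By group they were 6 of 25 rows of retinoic acid responsive genes, 1 of 7 of receptors, 1 of 6 of retinol dehydrogenases, 0 of 7 of uptake and storage and 0 of 13 of receptor coregulators. At an unadjusted p-value under 0.05, the uptake and coregulator groups had 0 rows each. Such differences were at least as frequent among some marker lists of the tissue, with 6 of 13 neural plate rows (46.2%), 4 of 16 neural crest rows (25.0%) and 2 of 10 midbrain and hindbrain rows, all more positive at stage 17. With the signs of the stage 14 table turned, 15 of the 58 pathway rows passed (25.9%), 10 of them more positive, where 17.9% of all genes did. Of the 8 rows, hoxd1.L, hoxd1.S, meis3.L and meis3.S passed either way, while hoxb1.S, hoxb4.S, rara.S and rdh10.L did not. The stage differences of the 10 member copies then ran from 0.11 to 4.39 with a median of 2.88.

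**Figure D3:**
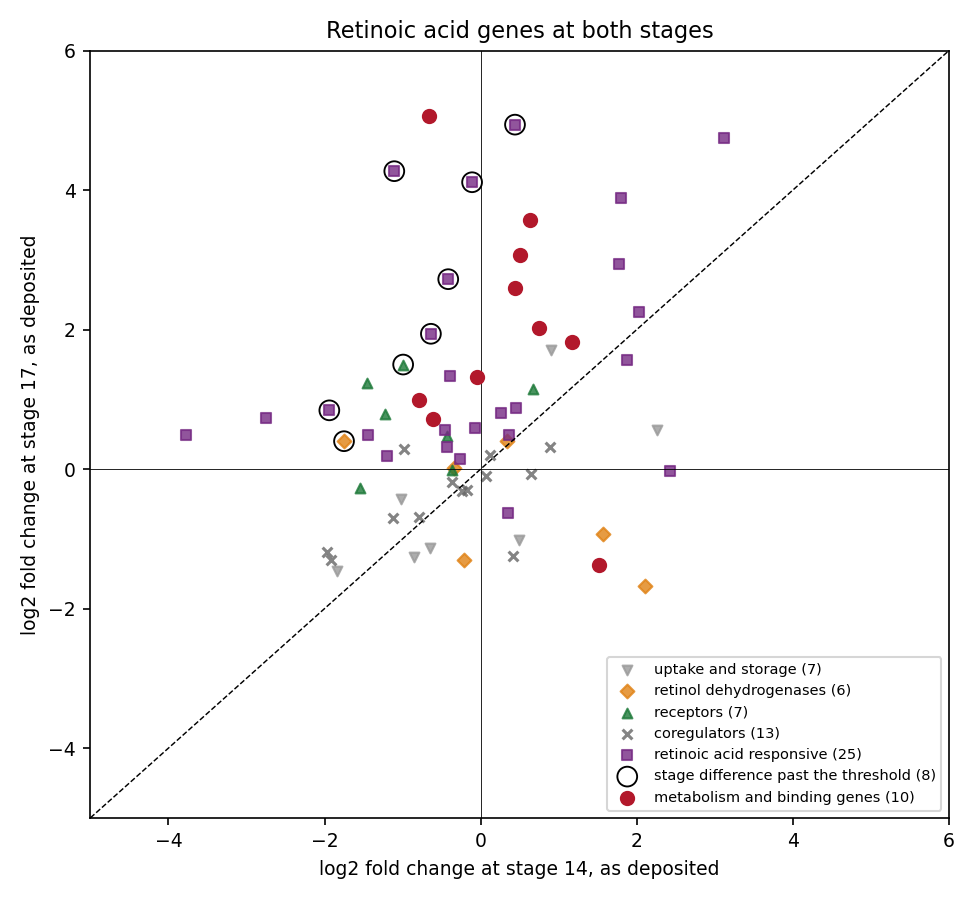
Log2 fold change at stage 17 against that at stage 14, as deposited, for the 10 metabolism and binding gene copies (red) and for 58 other pathway rows by group, with a dashed line of equal change. Rings mark the 8 rows with a stage difference past the threshold, all above the dashed line.

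Genes that respond to retinoic acid in vertebrate embryos, among them anterior Hox genes and the hindbrain factor gene meis3, accounted for most of the calls at stage 17. Past the authors' deposited threshold were 9 of 27 rows at stage 17 (33.3%), all positive, where 4.96% of all genes passed as positive. At stage 14 they were 3 of 28 (10.7%), 2 positive and 1 negative, close to the 8.68% of all genes. For hoxd1.S, a Hox gene induced directly by retinoic acid in Xenopus, the authors' deposited tables gave -0.11 (SE 0.38, adjusted p = 0.944) at the earlier stage and 4.11 (SE 0.52, adjusted p = 2.47e-12) at the later. The authors' deposited values of its copy hoxd1.L were 0.44 (SE 0.42) and, with an adjusted p of 0.000577, 4.94 (SE 1.14). Both hoxd1 copies were thus near 0 at the earlier stage and strongly positive at the later one.

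The cofactor gene meis3 showed the same order of values. For meis3.L the authors' deposited tables gave -0.41 (SE 0.30) first and 2.72 (SE 0.32, adjusted p = 1.23e-14) at the later stage, at means of 5355 and 2509 normalised counts. For meis3.S the authors' deposited tables gave -0.64 (SE 0.30) and then 1.94 (SE 0.26, adjusted p = 2.26e-11). Neither meis3 copy was past the threshold at stage 14.

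The authors' deposited table put further Hox rows past the threshold at stage 17, hoxb4.S at 4.27 (SE 0.99, adjusted p = 0.000589) and hoxd4.L at 3.95 (SE 0.50, adjusted p = 1.82e-12). The table of stage 14 gives no p-value for hoxd4.L. For hoxb1.S, which marks a hindbrain segment, the authors' deposited tables gave -1.94 (SE 0.33, adjusted p = 5.37e-07) at the earlier stage and 0.84 (SE 0.36, adjusted p = 0.127) at the later. The nuclear receptor gene nr2f2 was positive at both stages, with 2.03 (SE 0.64, adjusted p = 0.0236) and 2.25 (SE 0.60, adjusted p = 0.00435) for nr2f2.L in the authors' deposited tables. Its copy nr2f2.S passed at stage 17 with 3.89 (SE 0.73), and znf703.L passed at stage 17 with 0.88 (SE 0.30, adjusted p = 0.0402), in the authors' deposited table. The posterior gene cdx4.S passed at stage 14 with 3.77 (SE 1.24, adjusted p = 0.0328) in the authors' deposited table, and that of stage 17 gives it no p-value.

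**Figure D4:**
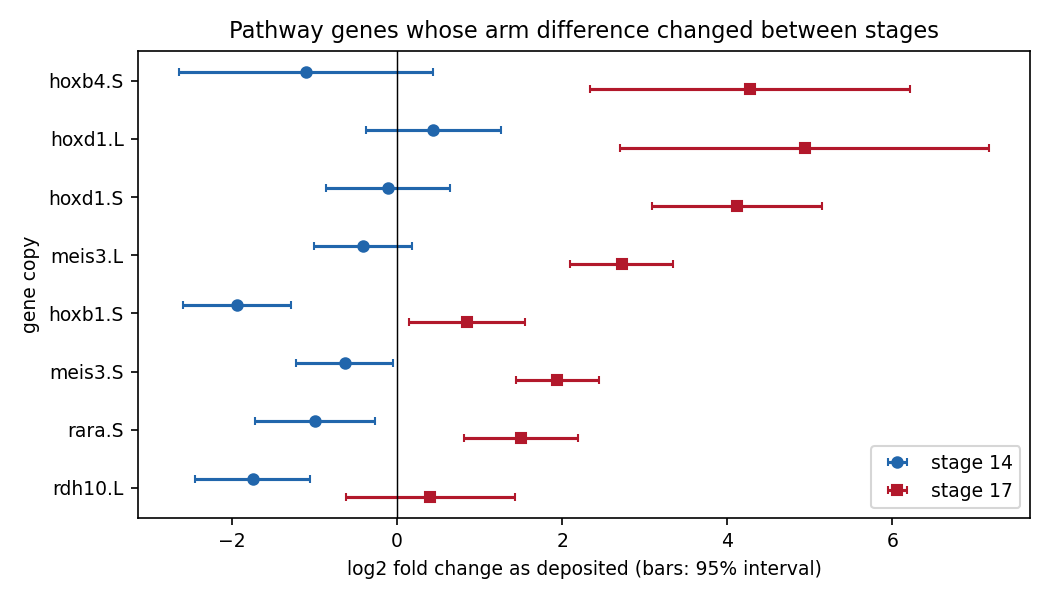
Log2 fold change at stage 14 (circles) and stage 17 (squares), as deposited, with 95% intervals from the standard error, for the 8 pathway rows whose stage difference had an adjusted p-value under 0.05. Each square lies to the right of its circle, by 5.38 for hoxb4.S at the top and by 2.15 for rdh10.L at the bottom.

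Among the receptors, rara.S changed side and rarg.S was positive at both stages. The authors' deposited tables gave rara.S, a retinoic acid receptor, -0.99 (SE 0.37, adjusted p = 0.0741) at the earlier stage and 1.50 (SE 0.35, adjusted p = 0.000839) at the later. Its copy rara.L had -1.23 (SE 0.67) and 0.80 (SE 0.63) in the authors' deposited tables, and was not past the threshold at either stage. For rarg.S the values in the authors' deposited tables were 0.68 (SE 0.24, adjusted p = 0.0483) and 1.15 (SE 0.32, adjusted p = 0.00642). The partner receptors rxra and rxrb had 0 of 4 copies past the threshold at each stage by the authors' DESeq2 test, with 1 copy at an unadjusted p-value under 0.05 at stage 14 and 0 at stage 17, and log2 fold changes from -1.54 to 1.24. Of these partner copies, rxra.S and rxrb.L also changed side by point values in the authors' deposited tables. For rxra.S the values were -1.46 (SE 0.55) and 1.24 (SE 0.65), and for rxrb.L -0.43 (SE 0.29) and 0.47 (SE 0.27). Their stage differences, 2.70 (SE 0.85) and 0.90 (SE 0.40), had adjusted p-values of 0.0813 and 0.429 by the normal test. Mean normalised counts of rarb and rxrg rows were at most 8.90 in the authors' deposited tables. The standard errors of these rarb and rxrg rows were at least 2.0, so only a very large change could pass at stage 14. At stage 17 these rows had no adjusted p-value and could not pass.

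Upstream of aldh1a2, the retinol dehydrogenase gene rdh10 was negative in the .L copy at stage 14. The authors' deposited tables gave rdh10.L -1.75 (SE 0.36, adjusted p = 4.40e-05) at the earlier stage and 0.40 (SE 0.52, adjusted p = 0.747) at the later. For rdh10.S the authors' deposited tables gave 0.34 (SE 0.33, adjusted p = 0.670) and 0.40 (SE 0.36, adjusted p = 0.597), so the change at stage 14 was not shared by both copies. Rows of aldh1a1, aldh1a3, cyp26b1 and crabp1, the nearest relatives of the 5 genes, had mean normalised counts of at most 11.8 in the authors' deposited tables. The authors' deposited tables gave an adjusted p-value to 1 of their 3 rows at stage 14 and to 1 of 4 at stage 17, so the others could not pass. By the authors' DESeq2 test 0 rows passed, and 0 had an unadjusted p-value under 0.05.

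In the storage group, lrat.L, whose enzyme esterifies retinol, was positive at stage 17 with 1.71 (SE 0.54, adjusted p = 0.0222) in the authors' deposited table. By the authors' deposited tables the retinoid isomerase gene rpe65.S was negative at both stages, with -1.84 (SE 0.35, adjusted p = 7.44e-06) and -1.46 (SE 0.32, adjusted p = 0.000197), and rpe65.L was negative at stage 17 with -3.51 (SE 0.95, adjusted p = 0.00480). Of the acyltransferase gene dgat1.L and the coactivator genes ncoa1.L and ncoa2.L, the authors' deposited table gave negative values at stage 14, of -1.02, -1.96 and -1.12, with adjusted p-values of 0.0402, 0.0395 and 0.0141. Their later values in the authors' deposited table were negative without passing, -0.43 (SE 0.41), -1.19 (SE 0.65) and -0.70 (SE 0.37). The stage differences had adjusted p-values of 0.903, 0.954 and 0.954.

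Genes whose pair of fold changes was nearest to that of a member gene, averaged over its copies, were found by Euclidean distance over the 2 contrasts among 9969 rows with a mean of at least 100 normalised counts in both tables. Nearest to dhrs3, at -0.08 and 4.06, were hoxd1.S at a distance of 0.060 and kirrel2.L at 0.20. Nearest to cyp26a1, at 0.90 and 2.70, were top1.2.S and sfrp2.L, at distances of 0.044 and 0.067. For crabp2, at 0.59 and 2.31, they were kremen2.S and npm2.S, at 0.080 and 0.11. Nearest to cyp26c1, at -0.70 and 0.86, were babam1.L and serpinh1.S, and nearest to aldh1a2, at 0.73 and -0.03, were poll.L and cdh3.S. Likeness over 2 values is coarse, and many rows lie near any such point. The mean over copies can also lie far from each copy. For dhrs3 the copies lay at -0.66 and 5.06 (.L) and at 0.51 and 3.07 (.S). For aldh1a2 they lay at 1.52 and -1.38 (.L) and at -0.05 and 1.32 (.S). Rows near such a mean, hoxd1.S included, are therefore not near the single copies.

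Markers of the tissue and of other cell types were read beside these results, against 8.68% of all genes called at the earlier stage and 9.96% at the later. Of 16 rows of 8 neural crest genes, 14 were past the threshold at stage 14 (87.5%), all negative, and 4 at stage 17 (25.0%), all negative, in the authors' deposited tables. Their summed computed levels in the numerator and denominator arms were 3355 and 32084 normalised counts at stage 14, and 42538 and 88968 at stage 17, and all 8 genes were present at both stages. Neural plate markers, like the retinoic acid genes, had more positive calls at stage 17. The authors' deposited tables put 2 of 13 rows past the threshold at stage 14 (15.4%) and 11 of 13 at stage 17 (84.6%), all positive. Past the threshold or not, all 13 neural plate rows were positive at both stages. At stage 14 only 5 of them had an unadjusted p-value under 0.05 by the authors' DESeq2 test. The 10 retinoic acid copies had 6 positive and 4 negative values at that stage. They were chosen for their shift between stages, so this contrast tests nothing. Their summed computed levels in the numerator and denominator arms were 62188 and 42809 normalised counts at stage 14, and 42974 and 10948 at stage 17. Of 10 tested midbrain and hindbrain rows, 2 were negative past the threshold at stage 14 and 2 positive at stage 17 in the authors' deposited tables, and gbx2 was not analysed here. By the authors' deposited tables, epidermal markers had 7 of 10 rows negative past the threshold at stage 14 (70.0%) and 4 of 11 at stage 17 (36.4%). Forebrain and eye rows past it were 3 of 8 at stage 14, otx2.L, otx2.S and hesx1.L, and 2 of 7 at stage 17, otx2.L and otx2.S, all positive, in the authors' deposited tables. Pronephros and heart rows past it were 2 of 5 at stage 14, pax8.S and lhx1.S, both negative, and 0 of 7 at stage 17, with 1 at an unadjusted p-value under 0.05, by the authors' DESeq2 test. Notochord rows past it were 1 of 4, positive, and then 1 of 3, negative, and endoderm rows 0 of 4 and 0 of 3, with 1 and 0 at an unadjusted p-value under 0.05, in the authors' deposited tables. The part of these cell types in the results above was not tested.

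Paraxial mesoderm, the main known site of aldh1a2 transcription in the vertebrate neurula, was represented at low counts. By the authors' deposited tables its marker rows summed to 489 and 473 mean normalised counts at the stages in order, with 1 of 11 tested rows negative past the threshold at stage 14 (9.09%, close to the 8.68% of all genes) and 2 of 10 positive at stage 17. Their summed computed levels were 458 and 520 in the numerator and denominator arms at stage 14, and 699 and 248 at stage 17. The defining gene tbx6 was not analysed here at either stage, and myod1.S had means of 9.03 and 2.38 in the authors' deposited tables. The part of this mesoderm in the values of aldh1a2 was not tested.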

How the data were processed

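Illumina RNA sequencing libraries of total RNA, unstranded per the labels' protocols, were made from 12 samples in 4 groups of 3. STAR 2.7.3a and DESeq2 are named in the submitters' processing notes; the genome build, annotation and filters are not given in the sources used here. The authors deposited 1 table per stage with DESeq2 column names, per the file headers: a mean normalised count, which is a signal scaled between libraries by the authors; a log2 fold change and its standard error, per the file headers; their ratio as a test score, per the file headers; and a p-value with an adjusted p-value, as deposited. Depth per library is unknown.

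The authors' adjusted p-values under 0.05 were used as calls. The number of genes behind the adjustment was 17088 at stage 14 and 22197 at stage 17, of which 16965 were in the stage 17 table. The shares of all genes at stage 17, 9.96% and 4.96%, therefore refer to those 16965 genes and not to every gene behind the adjustment. Computed here were 95% intervals, arm levels, the normal test of the stage difference and its Benjamini-Hochberg adjustment (Python 3.11.15, scipy 1.17.1). The difference test was run on simulated data with independent normal errors of the deposited size. The test itself assumes such errors, so that run could not check whether the real errors have this form. A count model foreseen for sample-level data was dropped, since the files hold comparisons. Symbols matched RefSeq (Xenopus_laevis_v10.1) for 10 of 10 members and 77 of 77 pathway rows.

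The members and gene lists were chosen with earlier results of these data known, and some list genes are not reported here. Named were all members, both copies of 11 pathway genes of metabolism and reception whatever their values, all other pathway rows past a threshold (at most 20), and the 2 nearest rows per member gene.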

Additional observations from a re-analysis of the deposited data

Results flagged for a closer look

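The arm difference changed between stage 14 and stage 17 in 8 pathway rows outside the group of 10 copies, by the normal test on the deposited standard errors with Benjamini-Hochberg adjustment over 16194 genes. The change, stage 17 minus stage 14 on the log2 scale, was 4.50 (SE 1.21, adjusted p = 0.0209) for hoxd1.L and 4.22 (SE 0.65, adjusted p = 1.98e-07) for hoxd1.S. For hoxb4.S it was 5.38 (SE 1.26, adjusted p = 0.00364), and for hoxb1.S 2.78 (SE 0.49). The cofactor gene meis3 had 3.14 (SE 0.44) for meis3.L and 2.58 (SE 0.40) for meis3.S. The receptor gene rara.S had 2.49 (SE 0.51, adjusted p = 0.000430), and the retinol dehydrogenase gene rdh10.L 2.15 (SE 0.63, adjusted p = 0.0451). How many samples show each direction is not known without values per sample. Stage and batch label cannot be told apart in these differences, which take the numerator to be the same arm in both tables.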

How the results depend on the processing

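An adjusted p threshold of 0.01 lowered the count of pathway rows past the threshold at stage 14 from 9 to 3. The same threshold left 12 of 14 rows at stage 17 and 6 of 8 rows with a stage difference. The share of all genes under 0.01 is not given here. With homeologs averaged, the count with a stage difference was 5 genes instead of 8 rows. The 8 rows came from hoxd1, meis3, hoxb1, hoxb4, rara and rdh10, so not all of these genes kept a call. Averaging counts genes and not rows, so its shares differ more than its counts. At stage 14 it gave 10 of 44 genes (22.7%, where 9.24% of all genes passed), against 13.6% of rows. At stage 17 it gave 10 of 46 genes (21.7%, where 11.2% of all genes passed), against 22.6% of rows. With the signs of the stage 14 table turned, an alternative chosen after seeing the data, the count of rows with a stage difference was 15 instead of 8. Of the 8 rows, 4 passed either way. The counts stayed within 1.5 times those reported in the other alternatives run: for all 3 counts a threshold of 0.1 and a mean of at least 10 normalised counts; for each stage adjustment over every p-value in the table, a fold change of at least 1 log2 unit and homeologs averaged; for stage 17 and the difference a threshold of 0.01; and for the difference tables centred on their median. Centring used the medians over the genes with adjusted p-values at both stages, not the medians of each stage given above. It moved the fold changes by 0.006 at stage 14 and 0.019 at stage 17. Of 40 recomputed values of single copies, each copy and stage by centring and by averaging, 30 moved by less than their standard error. All 10 that moved by more did so by averaging, since centring moved values too little to reach any standard error. Of called values, 0 changed sign. Averaging turned the signs of dhrs3.S at stage 14 (0.51 to -0.08) and of aldh1a2.S at stage 14 (-0.05 to 0.73) and stage 17 (1.32 to -0.03). The 4 recomputed medians moved by less than the SD over the copies. Leaving out replicates and another normalisation were not run, because values per sample were not analysed here. No paired analysis was possible because no replicate number occurs in more than 1 group. Low mean counts with large standard errors limit what can be read for aldh1a2, rarb, rxrg, aldh1a1, aldh1a3, cyp26b1 and crabp1.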

Other observations

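Protein-coding neighbours of the members in the RefSeq gene order were read for values, with names chosen after their values were seen. Beside cyp26a1.L, aldh18a1.L, an enzyme gene of proline synthesis, was positive at both stages, for which the authors' deposited tables gave 1.55 (SE 0.46, adjusted p = 0.0138) and 1.85 (SE 0.44, adjusted p = 9.26e-04). Beside crabp2.L, nes.L, which encodes the neural intermediate filament nestin, had 1.03 (SE 0.41) and 0.73 (SE 0.36), and isg20l2.L had 0.18 (SE 0.24) and 0.50 (SE 0.27), all short of the threshold in the authors' deposited tables. Beside dhrs3.S, aadacl4.S was negative at stage 17 with -2.96 (SE 0.72, adjusted p = 0.00142), where dhrs3.S was positive, in the authors' deposited table.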
